A study of Neurospora crassa with 8 samples.

Results

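Heterokaryon incompatibility, the recognition of non-self after hyphae of unlike strains fuse, was followed here through 6 genes of Neurospora crassa, a filamentous ascomycete. The genes were taken by locus name, in a choice made with earlier results of these data known: vib-1 (NCU03725), tol (NCU04453), pin-c (NCU03494), het-6 (NCU03533), het-c (NCU03493) and un-24 (NCU03539). All 6 were among the 9730 genes in the read-count files, and all 6 were among the 8118 genes that passed the filter on low counts. Poly(A) RNA came from mycelia of liquid cultures that were inoculated with conidia, the asexual spores, and shaken for 48 hours at 32 degrees C in Vogel's minimal medium with 1.5% sucrose. The 4 groups were the ve-1 mutant in iron-free medium, wild type in iron-free medium, the ve-1 mutant in standard medium and wild type in standard medium, with 2 cultures in each. The labels name the mutant only as ve-1 and give neither its allele nor the het alleles of any strain. The het loci among these genes are known to be polymorphic, so a difference in het alleles between the strains and the effect of the ve-1 genotype cannot be told apart.

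When cells that carry different alleles at a het locus fuse, the mixed compartment is normally walled off and dies. Several of the proteins that trigger this death carry a HET domain, as TOL, PIN-C and HET-6 do, and VIB-1, a transcription factor of the Ndt80 family, is known to be needed for the death reaction and for expression of pin-c, tol and het-6. The gene het-c encodes a secreted or plasma-membrane protein whose alternative alleles are recognised together with pin-c, its neighbour. The gene un-24 encodes the large subunit of ribonucleotide reductase, which makes deoxynucleotides for DNA, and it acts as an incompatibility locus together with het-6. VE-1 is a velvet protein, one of a family of fungal regulators of development and secondary metabolism.

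The libraries held from 6654585 to 10192729 counts, and the TMM scaling factors ran from 0.7739 to 1.257. Counts of ve-1 (NCU01731) were 15, 80, 20 and 28 in the ve-1 libraries and 2977, 1931, 1077 and 1533 in those of wild type (iron-free replicates 1 and 2, then standard replicates 1 and 2), as the labels say. Replicates were not alike in matA-1 (NCU01958), the mating-type gene, for which 1 and 5 reads were counted in ve-1 iron-free, 74 and 0 in wild-type iron-free, 0 and 403 in ve-1 standard and 118 and 0 in wild-type standard libraries. The labels do not give the mating type of any culture. The deposited files carry a further number, shared by the libraries of the same replicate number within a genotype in both media and different between replicates and genotypes. Its meaning is not stated; if it names a strain, the 2 media were compared in the same strains, and a difference between strains would recur in both. Conidial transcripts also differed between libraries. The levels of 5 conidial marker genes (eas, con-6, con-8, con-10 and con-13) were summed. The sum was 53070 and 3099 CPM (counts per 1000000 after TMM scaling) in ve-1 iron-free and 2850 and 6587 CPM in wild-type iron-free libraries. In standard medium it was 104100 and 118100 CPM in ve-1 and 58430 and 15620 CPM in wild-type libraries. The high sums were mostly eas, at 51530 CPM in ve-1 iron-free replicate 1 and 53740 CPM in wild-type standard replicate 1. In these libraries con-6 was at 50.4 and 248.9, con-8 at 1378 and 4141 and con-10 at 76.0 and 271.6 CPM. There con-13 was at 39.1 and 28.8 CPM. It had 0 counts in replicate 2 of both iron-free groups.

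In the ve-1 mutant vib-1, tol, pin-c and het-6 were lower than in wild type in both media, while het-c and un-24 were not called in either. In iron-free medium 4 of the 6 genes were called lower in ve-1 and none higher, where 10.1% of all tested genes were called lower, 8.36% higher and 18.5% in either direction (edgeR quasi-likelihood test with Benjamini-Hochberg adjustment, adjusted p under 0.05). In standard medium these 4 were again called lower and none higher, where 15.3% of tested genes were called lower, 12.5% higher and 27.8% in either direction. With only 2 libraries a group, groups that do not overlap are common: both ve-1 libraries lay below both wild-type libraries for 5 members in iron-free medium, where 29.8% of tested genes did so and 31.3% lay above. In standard medium 5 members lay below and 1 above, where 38.6% of tested genes lay below and 35.8% above. Over both media 508 genes, 6.26% of those tested, were called lower in each. The 2 comparisons contrast different libraries, which may share strains. Their calls come from a single fit to all 8 libraries with a shared estimate of the spread, so they are not independent. The median log2 fold change of the 6 genes was -2.27 in iron-free medium and -3.70 in standard medium, against 0.0442 and -0.0326 over all tested genes. In these bulk samples, fewer hyphal compartments with a transcript and less transcript per compartment cannot be told apart.

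**Figure D1:**
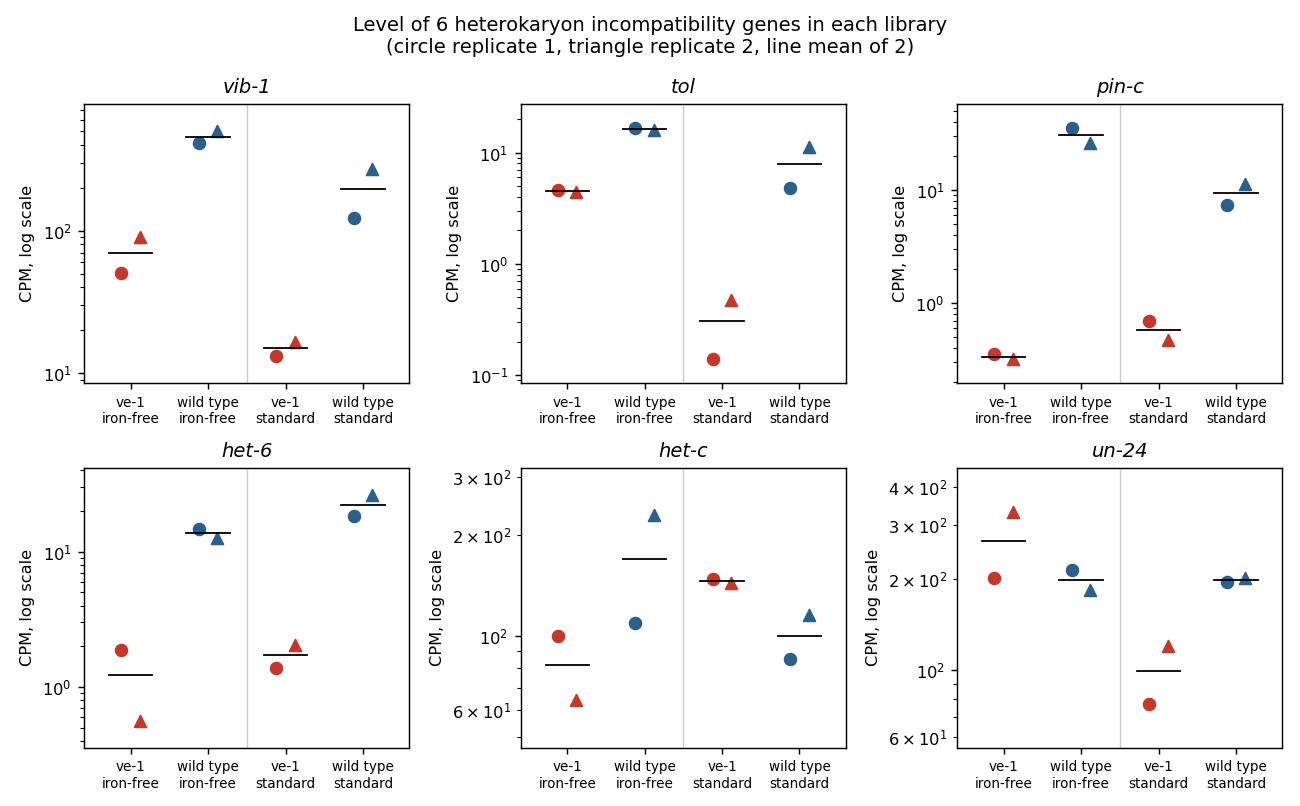
TMM-normalised CPM (log axis) of each gene in each library, with the 4 groups along the horizontal axis, red points for ve-1, blue points for wild type and a line at the mean of 2 libraries. For vib-1, tol, pin-c and het-6 both ve-1 libraries lie below both wild-type libraries in each medium, whereas het-c and un-24 stay between 64.1 and 331.1 CPM throughout.

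The transcription factor gene vib-1 had the highest level per kb of gene span of the 4 that fell. In iron-free medium it was at 50.4 and 89.8 CPM in the ve-1 libraries, against 411 and 498 CPM in those of wild type. The 2 groups were far apart relative to the spread within each, and the fitted level in the mutant was 6.48-fold lower (log2 fold change -2.70, SE 0.454, adjusted p = 0.01079). In standard medium it was at 13.2 and 16.7 CPM in ve-1, against 122 and 269 CPM in wild type. Here too the groups did not overlap, although the wild-type libraries differed 2.21-fold from each other. The log2 fold change was -3.71 (SE 0.481, adjusted p = 0.004894), a level 13.1-fold lower in ve-1, and it was -3.03 without wild-type standard replicate 2. The iron-free call held when any 1 of the 8 libraries was left out, and the standard call did not hold without ve-1 standard replicate 1 (adjusted p = 0.05887).

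The HET-domain gene pin-c had almost no reads in the mutant. In iron-free medium it had 3 and 4 counts in the ve-1 libraries (0.352 and 0.321 CPM), against 391 and 222 counts in those of wild type (35.3 and 25.9 CPM). Pooled over libraries the wild-type level was 93.4 times that of ve-1, with a 95% interval of 45.1 to 233 that covers counting error only. The fitted log2 fold change was -6.45 (SE 0.457, adjusted p = 0.001977), the 5th smallest p of 8118 genes. In standard medium pin-c had 5 and 3 counts in ve-1 (0.697 and 0.472 CPM), against 51 and 75 counts in wild type (7.37 and 11.3 CPM). The groups were again separate, and the log2 fold change was -3.95 (SE 0.444, adjusted p = 0.0038). Both calls of pin-c held with any 1 library left out.

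The HET-domain gene het-6 was lower in ve-1 in both media. In iron-free medium it was at 1.88 and 0.562 CPM in ve-1 (16 and 7 counts), against 14.8 and 12.5 CPM in wild type (log2 fold change -3.53, SE 0.546, adjusted p = 0.008757). In standard medium it was at 1.39 and 2.05 CPM in ve-1 (10 and 13 counts), against 18.2 and 26.3 CPM in wild type (log2 fold change -3.69, SE 0.547, adjusted p = 0.006396). Wild type and ve-1 did not overlap in either medium. The fitted level was 11.6-fold and 12.9-fold lower in ve-1, in iron-free and in standard medium. Leaving out ve-1 standard replicate 1 ended the standard call (adjusted p = 0.07194), and no single library ended the iron-free one. The iron-free log2 fold change was -4.56 without ve-1 iron-free replicate 1 and -2.85 without ve-1 iron-free replicate 2. With a replicate block within genotype het-6 was not called in iron-free medium (adjusted p = 0.07675) or in standard medium (adjusted p = 0.06059).

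The product of tol is needed for incompatibility between opposite mating types, and tol too was lower in ve-1 in both media. In iron-free medium it was at 4.58 and 4.42 CPM in ve-1, against 16.7 and 15.9 CPM in wild type, a level 3.61-fold lower (log2 fold change -1.85, SE 0.47, adjusted p = 0.03502). The replicates of each group were nearly equal, but this call was lost without any 1 of 6 of the 8 libraries (adjusted p up to 0.1279) and with a replicate block within genotype (adjusted p = 0.1978). In standard medium tol had 1 and 3 counts in ve-1 (0.139 and 0.472 CPM), against 33 and 74 counts in wild type (4.77 and 11.2 CPM). The pooled wild-type level was 26.7 times that of ve-1 (95% counting interval 10.1 to 99.8), and the fitted log2 fold change was -4.67 (SE 0.667, adjusted p = 0.006). With so few counts the depth sets only a wide range for this ratio, and the call was lost when ve-1 standard replicate 1 was left out (log2 fold change -4.03, adjusted p = 0.06145). The log2 fold change was -5.70 without ve-1 standard replicate 2 and -3.94 without wild-type standard replicate 2.

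**Figure D2:**
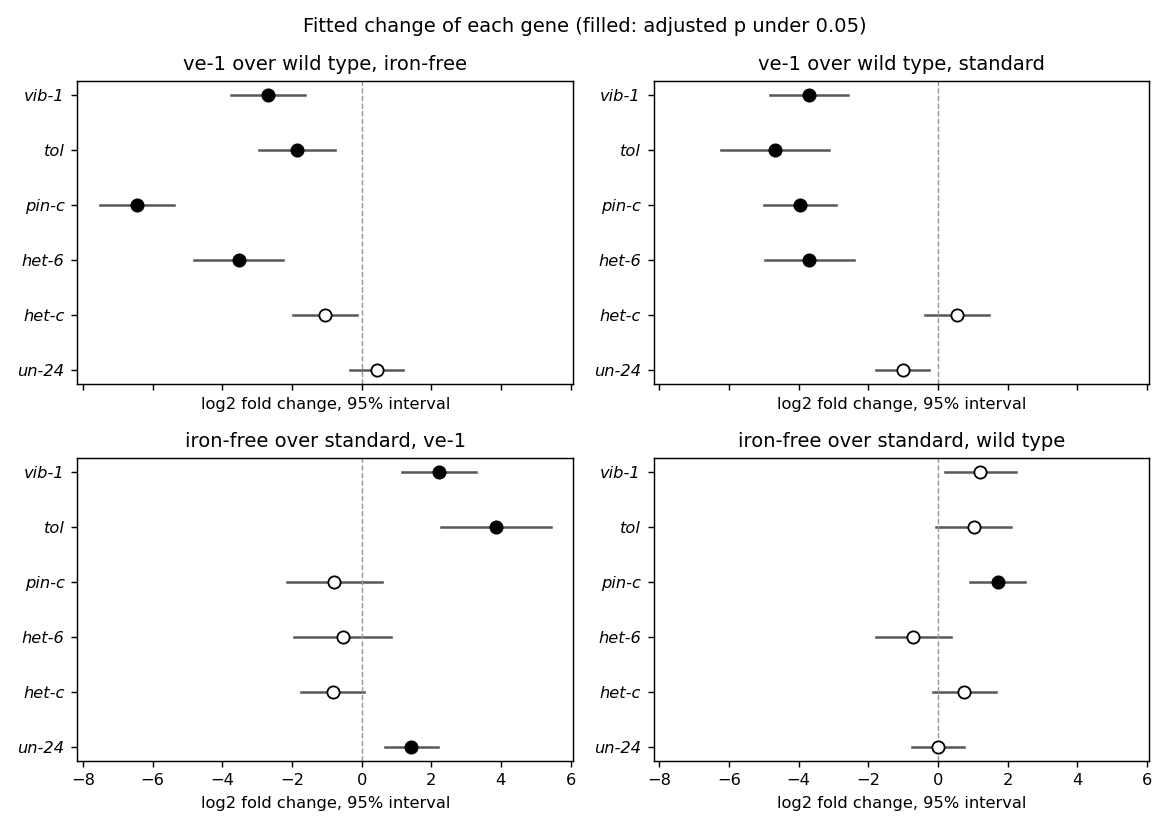
Fitted log2 fold changes (horizontal axis) with 95% intervals for each gene in 4 comparisons, filled where the adjusted p was under 0.05. The upper panels show vib-1, tol, pin-c and het-6 lower in ve-1 in both media; the lower panels show vib-1, tol and un-24 higher without iron in ve-1 (2.23, 3.85 and 1.43) and pin-c higher without iron in wild type (1.71).

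The recognition gene het-c and the ribonucleotide reductase gene un-24 were expressed at 64.1 CPM or more in every library and gave no call between genotypes. In iron-free medium het-c was at 99.8 and 64.1 CPM in ve-1, against 109 and 229.7 CPM in wild type (log2 fold change -1.05, 95% interval -1.96 to -0.132, adjusted p = 0.1033). In standard medium het-c was at 148.6 and 144.1 CPM in ve-1, against 85.1 and 115.2 CPM in wild type (log2 fold change 0.55, 95% interval -0.362 to 1.46, adjusted p = 0.316). Both ve-1 libraries were thus below both wild-type libraries without iron and above them with iron. The intervals exclude a fall of the size seen for pin-c, the adjacent gene.

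The gene un-24 was at 201.2 and 331.1 CPM in ve-1 without iron, against 212.7 and 182.8 CPM in wild type, and these groups overlapped (log2 fold change 0.43, 95% interval -0.324 to 1.18, adjusted p = 0.3777). With iron it was at 77.4 and 120.2 CPM in ve-1, against 195 and 201.2 CPM in wild type. These groups were separate, and the test stood close to its threshold (log2 fold change -1.004, SE 0.326, adjusted p = 0.05571). DESeq2 (adjusted p = 0.02246) and an edgeR fit to only the 4 libraries compared (adjusted p = 0.04765) called un-24 lower in ve-1 in standard medium, as did edgeR without ve-1 iron-free replicate 1 or replicate 2 (adjusted p = 0.04042 and 0.03932).

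Within the ve-1 mutant vib-1, tol and un-24 were higher in iron-free than in standard medium, and within wild type pin-c was. In ve-1, 3 of the 6 genes were called higher without iron and none lower, where 10.9% of tested genes were called higher, 11.6% lower and 22.4% in either direction. Both iron-free ve-1 libraries lay above both standard ones for 3 members and below them for 2, where 34.8% of tested genes lay above and 33.9% below. In wild type, 1 of the 6 was called higher and none lower, where 1.47% of tested genes were called higher, 5.1% lower and 6.57% in either direction. Both iron-free wild-type libraries lay above both standard ones for 3 members and below them for 1, where 28.3% of tested genes lay above and 29.2% below. These comparisons use the same 8 libraries as those between genotypes, so they are not independent of them.

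In ve-1, vib-1 was at 50.4 and 89.8 CPM without iron, against 13.2 and 16.7 CPM with it, 4.69-fold higher (log2 fold change 2.23, SE 0.455, adjusted p = 0.018). Even so, both iron-free ve-1 libraries remained below both standard wild-type libraries, which were at 122 and 269 CPM. In the same mutant tol had 39 and 55 counts without iron, against 1 and 3 with it, a pooled ratio of 15.2 (95% counting interval 5.73 to 56.8; log2 fold change 3.85, SE 0.674, adjusted p = 0.01235). This log2 fold change was 3.21 without ve-1 standard replicate 1 and 4.88 without ve-1 standard replicate 2. The un-24 level of the mutant was 2.70-fold higher without iron (log2 fold change 1.43, SE 0.329, adjusted p = 0.02381), and its values of 201.2 and 331.1 CPM lay within or above those of wild type. All 3 calls were lost without ve-1 standard replicate 1 or without ve-1 iron-free replicate 2, with adjusted p up to 0.1293, 0.09821 and 0.1581 over all left-out libraries, and those of vib-1 and un-24 also without ve-1 standard replicate 2.

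For pin-c and het-6, at low counts in the mutant in both media, no difference between the media was called there. Without iron against with iron, pin-c had 7 against 8 counts and het-6 had 23 against 23 counts over the 2 ve-1 libraries of each medium. Their log2 fold changes were -0.79 (95% interval -2.15 to 0.572) and -0.55 (95% interval -1.94 to 0.847), with adjusted p of 0.4137 and 0.5359. For pin-c the interval of the pooled ratio from counting error alone was 0.174 to 1.78. Within it lay a fall of up to 5.74-fold and a rise of up to 1.78-fold, so changes within these limits were not detectable at this depth. The het-c values of ve-1 were lower in both iron-free libraries than in both standard libraries, without a call (log2 fold change -0.84, adjusted p = 0.1568).

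In wild type, pin-c was at 35.3 and 25.9 CPM without iron, against 7.37 and 11.3 CPM with it, 3.28-fold higher (log2 fold change 1.71, SE 0.336, adjusted p = 0.03183). The groups were separate, yet the call was lost without any 1 of 5 of the 8 libraries, with adjusted p up to 0.152, and with a replicate block within genotype (adjusted p = 0.07285). For vib-1 and tol both wild-type iron-free libraries were above both standard ones without a call (log2 fold changes 1.22 and 1.03, adjusted p = 0.1329 and 0.2105). EdgeR with total-count scaling, DESeq2 and edgeR with a replicate block over all groups each called vib-1 higher (adjusted p = 0.03328, 0.04521 and 0.04981). Total-count scaling also moved the median of all genes to 0.55 on the log2 scale, with 1003 genes called higher, against 119 in the main fit. The wild-type values of het-6 were 14.8 and 12.5 CPM without iron and 18.2 and 26.3 CPM with it (log2 fold change -0.70, adjusted p = 0.3765). Levels of un-24 in wild type lay between 182.8 and 212.7 CPM over both media, with a 95% interval for the log2 fold change of -0.755 to 0.75.

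Whether the effect of ve-1 depends on iron was asked with the interaction term, the ve-1 effect without iron minus that with iron. No gene of the 6 was called by edgeR, where 0.246% of all tested genes were. None was called by DESeq2 either, where 7.12% of the genes it tested were. In edgeR 4 of the 6 had an unadjusted p under 0.05, where 20.3% of all tested genes did. The term was -2.50 for pin-c (SE 0.683, adjusted p = 0.1233), whose fitted deficit was 87.6-fold without iron and 15.5-fold with it, and 2.82 for tol (SE 0.836, adjusted p = 0.1369), whose fitted deficit was 3.61-fold without iron and 25.5-fold with it. For het-c and un-24 it was -1.60 and 1.43 (adjusted p = 0.1791 and 0.1562), for vib-1 1.01 (adjusted p = 0.385), and for het-6 0.15 (95% interval -1.68 to 1.99, adjusted p = 0.9307).

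Set against vib-1 in the same library, on a scale of CPM per kb of gene span, the 3 HET-domain genes had different patterns. The pin-c level was 0.797% and 0.408% of that of vib-1 in ve-1 iron-free libraries, 9.79% and 5.94% in wild-type iron-free, 6% and 3.23% in ve-1 standard and 6.88% and 4.79% in wild-type standard libraries. Thus the 2 ve-1 iron-free libraries stood below all 6 others. The het-6 level was 5.38% and 0.904% of vib-1 in ve-1 iron-free, 5.2% and 3.62% in wild-type iron-free, 15.2% and 17.7% in ve-1 standard and 21.5% and 14.1% in wild-type standard libraries. Here the 2 media separated in both genotypes, and within a medium the genotypes overlapped. The tol level was 8.51% and 4.6% of vib-1 in ve-1 iron-free, 3.8% and 2.99% in wild-type iron-free, 0.985% and 2.65% in ve-1 standard and 3.66% and 3.88% in wild-type standard libraries. These ratios are descriptions; those of ve-1 rest on the few counts given above.

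**Figure D3:**
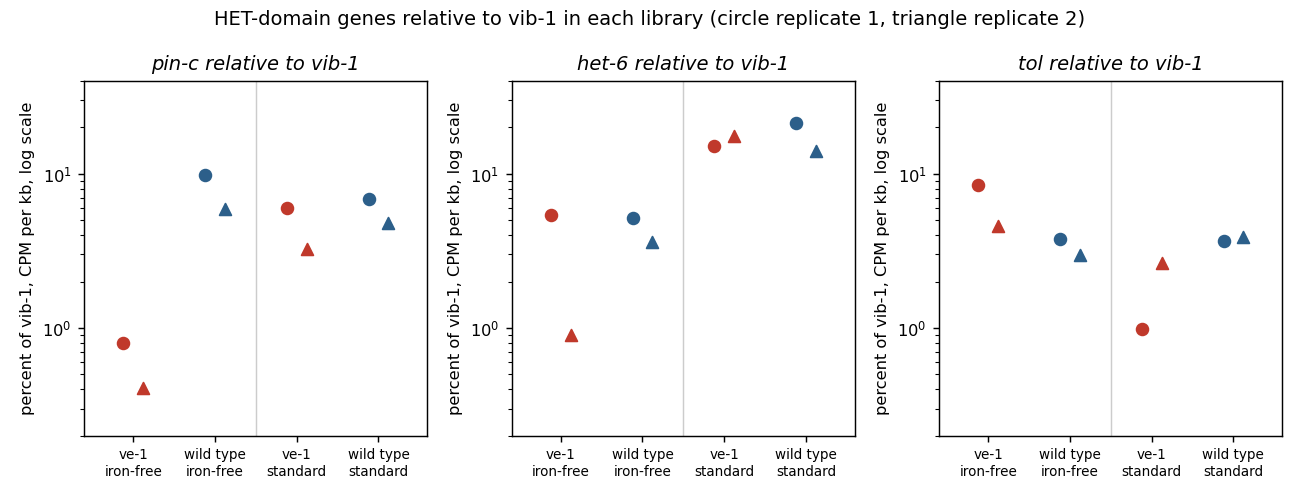
Level of pin-c, het-6 and tol as a percent of vib-1 in the same library, in CPM per kb of gene span (log axis), with red points for ve-1 and blue points for wild type. For pin-c the ve-1 iron-free libraries (0.797% and 0.408%) lie below the rest; for het-6 all 4 iron-free libraries lie below the 4 standard ones.

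The order of the 6 genes by level per kb of gene span also differed between genotypes. In wild type vib-1 came first in both media, at 133.6 ± 18.1 CPM per kb without iron and 57.5 ± 30.6 with it (SD, n = 2), followed by un-24 and het-c. In ve-1 vib-1 was the third, after un-24 and het-c without iron (20.6 ± 8.2 CPM per kb) and after het-c and un-24 with it (4.4 ± 0.714). The least abundant gene was pin-c in ve-1 without iron (0.113 ± 0.00734) and tol in the other 3 groups. Neighbours in this order whose libraries overlapped were het-c and vib-1 in ve-1 iron-free, un-24 and het-c in wild-type iron-free, and vib-1 and un-24 as well as pin-c and tol in wild-type standard libraries. Among all tested genes the level of vib-1 stood at percentile 63.7 in ve-1 and 94.2 in wild type without iron, and at percentile 21.2 in ve-1 and 83.9 in wild type with iron.

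The genes beside the 6 loci were also compared between genotypes. The genes pin-c and het-c are adjacent on chromosome II, with 0 annotated genes between them, and het-6 and un-24 lie on the same chromosome with 5 annotated genes between them. Of the 29 other genes within 3 places of a member in the annotated order, 20 were tested. In iron-free medium 3 of these 20 were called lower in ve-1 and none higher (NCU04454, NCU04451 and NCU10500, all near tol, with log2 fold changes of -0.77, -3.07 and -2.13), where 10.1% of all tested genes were called lower. In standard medium 1 was called higher (NCU04455, 1.50) and none lower, where 12.5% of all tested genes were called higher and 15.3% lower. The pin-c level was 0.422% and 0.599% of that of het-c in ve-1 iron-free, 38.6% and 13.5% in wild-type iron-free, 0.561% and 0.391% in ve-1 standard and 10.4% and 11.8% in wild-type standard libraries, in CPM per kb of gene span. No member overlaps an annotated gene. Near vib-1, the hyphal fusion gene ham-2, with 1 gene between them, had log2 fold changes of -0.50 and -0.28 in iron-free and standard medium (adjusted p = 0.1523 and 0.3775).

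**Figure D4:**
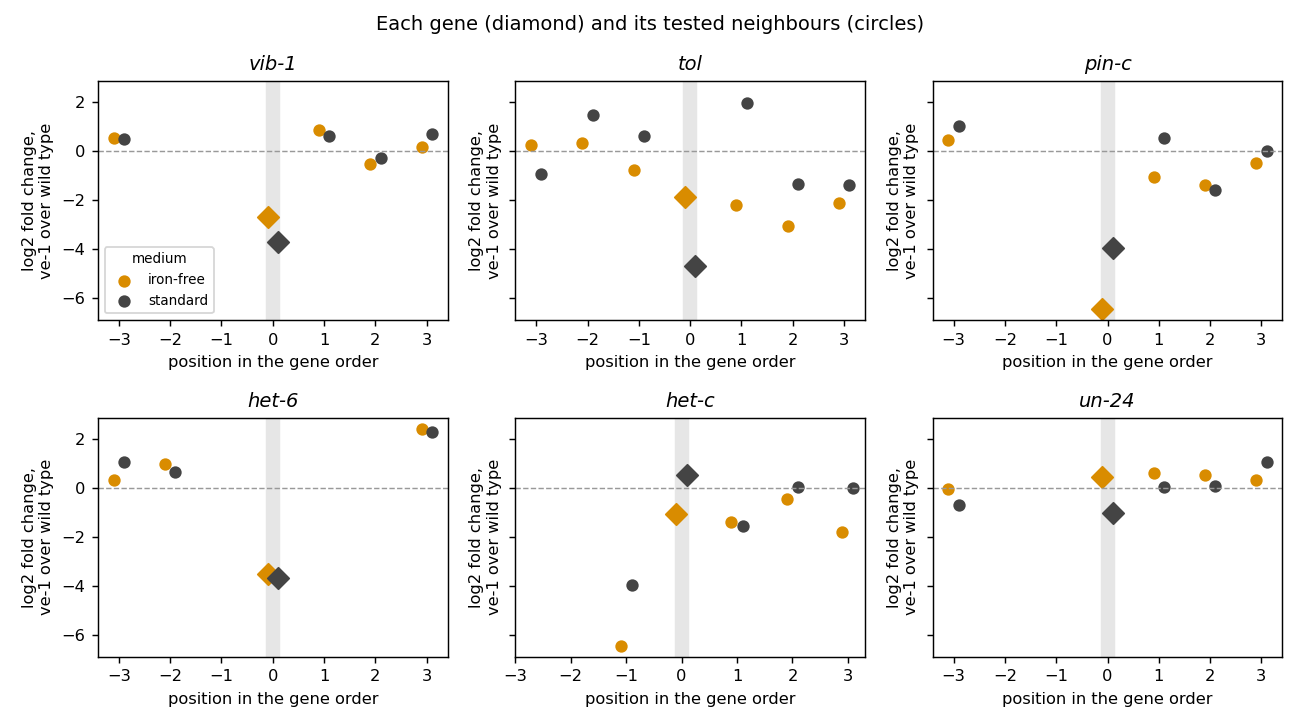
Log2 fold change of ve-1 over wild type (vertical axis) for each member (diamonds) and its tested neighbours (circles) by position in the annotated gene order, in iron-free medium (orange) and standard medium (grey). No tested neighbour of vib-1, pin-c or het-6 other than a member was called lower in ve-1. The genes at positions -1, 1 and 2 of het-6 were not tested, nor those at -2 and -1 of vib-1 and pin-c. Near tol, the genes at positions 2 and 3 are also low, at -3.07 and -2.13 in iron-free medium.

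Genes with the most similar profiles over the 8 libraries were sought for the 4 members whose log2 CPM had an SD of at least 1. Likeness was the root mean square difference of log2 CPM profiles, each centred on its own mean. For vib-1 the nearest were NCU03293 (0.192), NCU06114 (0.295) and gh16-1 (NCU01353, 0.297), a glycoside hydrolase family gene by its symbol. For tol they were NCU06114 (0.38), the potassium transporter gene hak-1 (NCU00790, 0.408) and NCU07933 (0.421), and vib-1 itself stood at 0.494 from tol. For pin-c they were NCU05183 (0.392), NCU10539 (0.477) and NCU06589 (0.504), and for het-6 NCU07804 (0.303), NCU05081 (0.328) and the clock-controlled gene ccg-16 (NCU05495, 0.347). In the ve-1 libraries NCU10539 was at 0 to 0.558 CPM, NCU06589 at 0 to 0.161 CPM and NCU05081 at 0 to 0.235 CPM. For these genes the likeness in ve-1 thus rests on few or no reads. NCU05183 was at 0.47 and 0.482 CPM in ve-1 iron-free and 36.7 and 23.6 CPM in wild-type iron-free libraries, close to pin-c. The distance between pin-c and vib-1 was 1.26 and that between pin-c and het-6 was 1.1, and none of the 4 was among the 3 nearest genes of another.

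Hyphal fusion precedes the death reaction, and part of its genes were lower in ve-1. Of 14 fusion genes, 7 were called lower in iron-free medium and 7 in standard medium and none was higher, where 10.1% and 15.3% of all tested genes were called lower. The median log2 fold changes of the list were -0.67 and -0.87, against 0.0442 and -0.0326 over all tested genes. The anastomosis genes ham-7 and ham-8 had -3.14 and -3.09 in iron-free medium and -2.25 and -2.21 in standard medium (adjusted p from 0.002109 to 0.004439). The genes rco-1 and rcm-1, which encode a co-repressor pair, were not called between genotypes in either medium, and rcm-1 was 0.85 higher on the log2 scale without iron in ve-1 (adjusted p = 0.04036). Another Ndt80-family gene, fsd-1 (NCU09915), known from female sexual development, was not called in any of the 4 comparisons, with log2 fold changes of -1.82 and -1.16 for ve-1 against wild type in iron-free and standard medium (adjusted p = 0.07916 and 0.1833).

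Conidial and sexual markers moved with some of the same groups. Of the 5 conidial markers none was called between genotypes in iron-free medium, and in standard medium con-6 was called higher in the mutant, as were 12.5% of all tested genes. Without iron 3 were called lower in ve-1, where 11.6% of all tested genes were, and none in wild type, where 5.1% were. The median log2 fold change of the 5 markers was nonetheless similar, -3.16 in ve-1 and -3.31 in wild type. The difference between the genotypes was not tested for the list. The summed conidial level was higher in both ve-1 standard libraries than in both wild-type standard libraries. The sum in ve-1 iron-free replicate 2, at 3099 CPM, lay within the wild-type range of 2850 to 6587 CPM, but single markers differed. There eas (2485 CPM) and con-6 (51.3 CPM) were above both wild-type iron-free libraries. The levels of con-8 (547.7 CPM) and con-10 (15.2 CPM) were below both. This library was thus not matched to wild type in conidial transcripts. In it vib-1 was at 89.8, tol at 4.42, pin-c at 0.321 and het-6 at 0.562 CPM, each below both wild-type iron-free libraries. Of the sexual markers, the ascus development gene asd-1 was lower in ve-1 in both media (log2 fold changes -4.07 and -3.61, adjusted p = 0.005118 and 0.005139), while fmf-1 was not tested. The level of poi-2 was 633.4 and 71.3 CPM in ve-1 standard libraries, against 3.32 and 3.47 CPM in wild type, a rise past the threshold (log2 fold change 6.69, adjusted p = 0.02964), and it was not called between genotypes without iron (adjusted p = 0.2951). The part of these transcripts in the results for the 6 genes was not tested.

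In the authors' deposited tables of differential genes every adjusted p was under 0.05, so that a gene is either listed as changed or left out. For ve-1 against wild type they listed 2197 genes in standard and 1548 in iron-free medium. For iron-free against standard medium they listed 1004 genes in wild type and 1837 in ve-1. Of the 24 pairs of member and comparison, 12 were listed there and 12 were called by edgeR. These were the same 12 pairs, with the same sign in 12. Both sets of calls rest on the same 8 libraries, so they are not independent. The log2 fold changes in the authors' deposited tables for pin-c were -5.85 in iron-free and -3.40 in standard medium for ve-1 against wild type, and 1.59 for iron-free against standard medium in wild type.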

How the data were processed

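The authors deposited raw read counts per gene for each of the 8 libraries. Per the submitters' processing notes the tools included FastQC, Trim Galore, STAR and DESeq2. No counting tool, strand setting or genome build is stated in the labels or file headers. The authors' deposited comparison tables hold log2 fold changes, adjusted p-values and group means (a signal, not used here).

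EdgeR 4.0.16 (R 4.3.3) was run on the counts: filterByExpr (min.count 10, min.total.count 15), TMM scaling, all 4 groups in a single robust quasi-likelihood fit, two-sided tests and Benjamini-Hochberg adjustment over 8118 genes, with calls at an adjusted p under 0.05. The SE was taken as the size of the log2 fold change over the root of F. Log2 profiles used a prior count of 2. Exact binomial intervals of pooled count ratios cover counting error only, as PCR copies are not told apart. Replicates of each group differed beyond sampling noise (chi-square over degrees of freedom, 39.27 to 171.2) and were kept separate.

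Symbols, gene order and spans came from the RefSeq table of assembly NC12 (9729 of 9730 identifiers matched); no coordinates are given because the build of the counts is not stated. Members and lists were chosen with earlier results of these data known. Genes named were the members, ve-1, matA-1, markers, 3 neighbours a side, the 3 nearest profiles and called list genes. The list of allorecognition symbols held no gene beyond the 6 members, and that of ribonucleotide reductase none beyond un-24. Sequences and HET-domain relatives were not analysed here. The alternatives tried were other scalings and filters, DESeq2 1.42.0, non-robust dispersions, fewer libraries, a replicate term and each library left out.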

Additional observations from a re-analysis of the deposited data

Results flagged for a closer look

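For het-c the ve-1 libraries lay on opposite sides of the wild-type libraries in the 2 media, without a call in either medium. Both ve-1 libraries were below both wild-type libraries without iron, and both were above them with iron. Such separation is common with 2 libraries a group. Without iron 29.8% of tested genes lay below and 31.3% above, and with iron 38.6% lay below and 35.8% above. The share of genes on opposite sides in the 2 media was not counted. The interaction term was -1.60 on the log2 scale, with an adjusted p of 0.1791 in edgeR, so the difference did not pass the test.

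For pin-c the iron-free libraries lay on opposite sides of the standard libraries in the 2 genotypes, with a call in wild type only. Both ve-1 libraries were lower without iron than with it (0.352 and 0.321 against 0.697 and 0.472 CPM). Both wild-type libraries were higher (35.3 and 25.9 against 7.37 and 11.3 CPM). In ve-1 33.9% of tested genes lay below and 34.8% above without iron, and in wild type 29.2% lay below and 28.3% above. The share of genes on opposite sides in the 2 genotypes was not counted. The interaction term was -2.50, with an adjusted p of 0.1233 in edgeR, and the ve-1 side rests on 7 and 8 counts.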

How the results depend on the processing

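Of the 12 calls for the 6 genes, 4 held with any 1 library left out: pin-c in both media and vib-1 and het-6 in iron-free medium, all between genotypes. Without ve-1 standard replicate 1, 8 of the 12 were lost, and calls between genotypes in standard medium numbered 104 over all genes, against 2258 with it. With a library left out, the fit assumes that the lone library of its group varies like the other groups. The number of members called between genotypes ran from 1 to 5 in standard medium and from 3 to 4 in iron-free medium; between media it ran from 0 to 1 within wild type and from 0 to 3 within ve-1. Over all genes those fits called 104 to 2361, 586 to 1487, 7 to 645 and 59 to 1756.

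The 1 member called without iron in wild type became 3 with total-count scaling (vib-1, pin-c and het-c), 2 with DESeq2, 2 with the replicate block and 0 with only the 4 libraries compared. For this comparison the calls over all genes were 119 higher and 414 lower, against 1003 and 287 with total-count scaling, which moved the median of all genes to 0.55 on the log2 scale, and 397 and 836 with DESeq2; only the 4 libraries compared gave 125 calls. Between genotypes in standard medium the split was 1012 higher and 1246 lower, against 1541 and 787 with total-count scaling and 1221 and 1009 with upper-quartile scaling; for iron-free against standard medium in ve-1 it was 881 and 941, against 1418 and 679 with total-count scaling. In iron-free medium only the 4 libraries compared gave 940 calls, against 1500. The interaction called 583 genes with DESeq2, against 20, and none was a member. The no-filter fit gave 35 interaction calls.

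The labels do not say that replicate numbers pair the libraries, and correlations of replicate differences between groups ran from -0.0255 to 0.13, so no pairing across genotypes was used. Within a genotype the files' further number may mark the same strain in both media. The replicate block changed 1 member call, vib-1 without iron in wild type. A replicate block within genotype, chosen after seeing the data, left 3 members called in standard medium, 2 in iron-free medium (pin-c and vib-1), 0 between media within wild type and 3 within ve-1, while over all genes it left 413, 162, 326 and 1235 calls; the cause was not tested.

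Directions reversed only for log2 fold changes that were never called. For un-24 without iron in wild type, -0.002672 became 0.02514 with RLE size factors, 0.1087 with upper-quartile scaling, 0.5332 with total-count scaling, 0.004721 with no filter, 0.02797 with DESeq2 and 0.01073 with the replicate block, and ran from -0.06863 to 0.1923 with a library left out. The het-6 interaction of 0.1544 became -0.0932 with total-count scaling and ran from -0.872 to 0.8408 with a library left out, and het-6 without iron in ve-1 ran from -1.572 to 0.1402. Counts of 1 to 16 limit pin-c and het-6 in ve-1 and tol in ve-1 standard libraries.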
